A study of Mus musculus with 4 samples.

Results

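Chemokines, small secreted or membrane-tethered proteins that guide leukocytes, and 2 endothelial and stromal adhesion molecules were examined in primary mouse Leydig cells. Their 9 genes (Ccl2, Ccl7, Cxcl1, Cxcl10, Cxcl12, Cxcl16, Cx3cl1, Vcam1 and Icam1) were chosen by symbol, as the rows of the count table whose Ensembl identifier carries that symbol in the GRCm38 annotation. All 9 were present among the 55812 rows, and all 9 passed the filter on low counts among the 14701 genes that did so. The cells, labelled as Leydig cells of a 6-month-old mouse, had received either Negative siRNA, a control small interfering RNA, or Trps1 siRNA, which lowers Trps1, a GATA-type zinc finger protein known as a repressor of transcription. Each group held 2 samples, numbered 1 and 2 in their titles. No strain, dose, time or treatment of the culture with a cytokine is given in the sources used here. The labels do not tie the 2 samples of either group to separate cultures or animals. The p-values therefore reflect how far these 4 libraries scatter, and that scatter may be technical.

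Chemokines are classed by the spacing of the first conserved cysteines near the amino terminus, and each class signals through its own G protein-coupled receptors on leukocytes. Some are made at a steady level to hold cells in place, and others are switched on by NF-kB or interferon signalling during inflammation. A leukocyte that has followed a chemokine is arrested by integrins that bind immunoglobulin-type adhesion molecules such as VCAM-1 and ICAM-1. In the testis, Leydig cells lie between the seminiferous tubules in close contact with resident macrophages.

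The class of each of the 7 chemokines can be read from its coding sequence, and the stretch around the first cysteine pair is shown because the results below are ordered by these classes. All 7 stretches lie in exon 2 of the first-listed transcript (GENCODE M21, GRCm38), are written 5′ to 3′ on the coding strand, and have the 2 cysteine codons in capitals.
Ccl2, chr11:82036497-82036520, plus strand: ccactcaccTGCTGCtactcattc
Ccl7, chr11:82046529-82046552, plus strand: gcatccacaTGCTGCtatgtcaag
Cxcl1, chr5:90891487-90891513, plus strand: gagctgcgcTGTcagTGCctgcagacc
Cxcl10, chr5:92348172-92348198, minus strand: acggtccgcTGCaacTGCatccatatc
Cxcl12, chr6:117171499-117171525, plus strand: agctaccgaTGCcccTGCcggttcttc
Cxcl16, chr11:70459118-70459144, minus strand: gctggaagtTGTtctTGTgatcgtacc
Cx3cl1, chr8:94778042-94778074, plus strand: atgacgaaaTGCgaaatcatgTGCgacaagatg
The cysteine codons are adjacent in the CC chemokines Ccl2 and Ccl7. They are 1 residue apart in the 4 CXC chemokines and 3 residues apart in Cx3cl1. The translated lengths were 97 residues for Ccl7, 96 for Cxcl1, 98 for Cxcl10, 119 for Cxcl12 and 148 for Ccl2, against 246 for Cxcl16 and 395 for Cx3cl1, the 2 members that carry a mucin-like stalk and a membrane span.

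The libraries held 17844125 to 25852898 counted reads. Values are given as CPM, counts scaled to library sizes that TMM (trimmed mean of M values) had adjusted, and 3 reads corresponded to 0.116 to 0.168 CPM. Reads of mitochondrial genes made up 0.915% to 1.12% of each library. Trps1 itself had 38.1 and 42.2 CPM in the Negative siRNA samples and 23.5 and 30.1 CPM in the Trps1 siRNA samples. Its level with Trps1 siRNA was 67.1% of control, a log2 fold change of -0.58 ± 0.10 (standard error, edgeR adjusted p = 0.000351). Among 7 Leydig cell markers 5 rose and 2 were not called, and their summed level was 3957 and 4241 CPM in the controls and 5893 and 6339 CPM with Trps1 siRNA. Of 14 macrophage markers 8 fell, none rose and 6 did not pass. All 14 fold changes were below 0, beside 49.6% of all tested genes. Their summed level was 3106 and 3026 CPM in the controls and 2629 and 2070 CPM with Trps1 siRNA, so macrophage transcripts were present in every library. All 8 endothelial markers missed the threshold, at a summed 38.9 to 48.4 CPM, and 1 of them, Tie1, was called lower without sample 2 of Negative siRNA (-1.22, edgeR adjusted p = 0.0306). Of 6 listed peritubular myoid markers 4 were tested and 2 fell (Myl9 and Acta2). Of 7 listed Sertoli cell markers 4 were tested and 1 rose (Gata1). Of 9 listed germ cell markers 3 were tested and 2 rose (Kit and Zbtb16), and 6 did not pass the filter on low counts. Kit and Zbtb16 had control means of 82.8 and 32.8 CPM, where all 9 summed to 120 and 114 CPM in the controls. The call of Gata1 was lost with DESeq2 and in 3 of the 4 fits that left out a sample. That of Zbtb16 (0.32) was lost with DESeq2, limma voom, the fit that was not robust and without sample 2 of either group, where its lowest value was 0.12 without sample 2 of Trps1 siRNA. Lymphocyte markers summed to 1.79 to 3.63 CPM, and neutrophil markers to 0.0497 to 3.19 CPM with S100a9, Ly6g and Retnlg at 0 reads in all libraries. In bulk RNA a loss of cells of one type and a loss of RNA per cell cannot be told apart.

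With Trps1 siRNA, 3 of the 9 genes fell (Cxcl10, Ccl2 and Ccl7), 3 rose (Cxcl12, Cx3cl1 and Cxcl1) and 3 did not pass the test (Cxcl16, Vcam1 and Icam1). A gene was called when its Benjamini-Hochberg adjusted p in edgeR's quasi-likelihood test, adjusted over all 14701 tested genes, was under 0.05. The 6 called members are 66.7% of the 9, where 11.2% of all tested genes were called. In each direction 33.3% of members were called, beside 6.00% of all tested genes called lower and 5.24% called higher. The 2 groups did not overlap in CPM for 8 members (88.9%), beside 52.2% of all tested genes. The members were chosen with earlier results of these data known, so these shares describe the 9 and are not a test of them. The median log2 fold change was -0.07 over the members and 0.00243 over all tested genes. The summed level of the 9 was 4824 and 4745 CPM in the controls and 4772 and 4656 CPM with Trps1 siRNA, and Vcam1 made up 69.7% to 72.1% of it. The members thus moved in opposite directions, as the plot of CPM by sample shows, and the sum of all 9 overlapped between the groups. Without Vcam1 the summed CPM of the other 8 did not overlap, at 1347 and 1327 CPM in the controls and 1431.5 and 1413 CPM with Trps1 siRNA. These sums are not scaled to gene length, so long genes weigh more in them, and they do not give the direction of total transcripts.

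**Figure D1:**
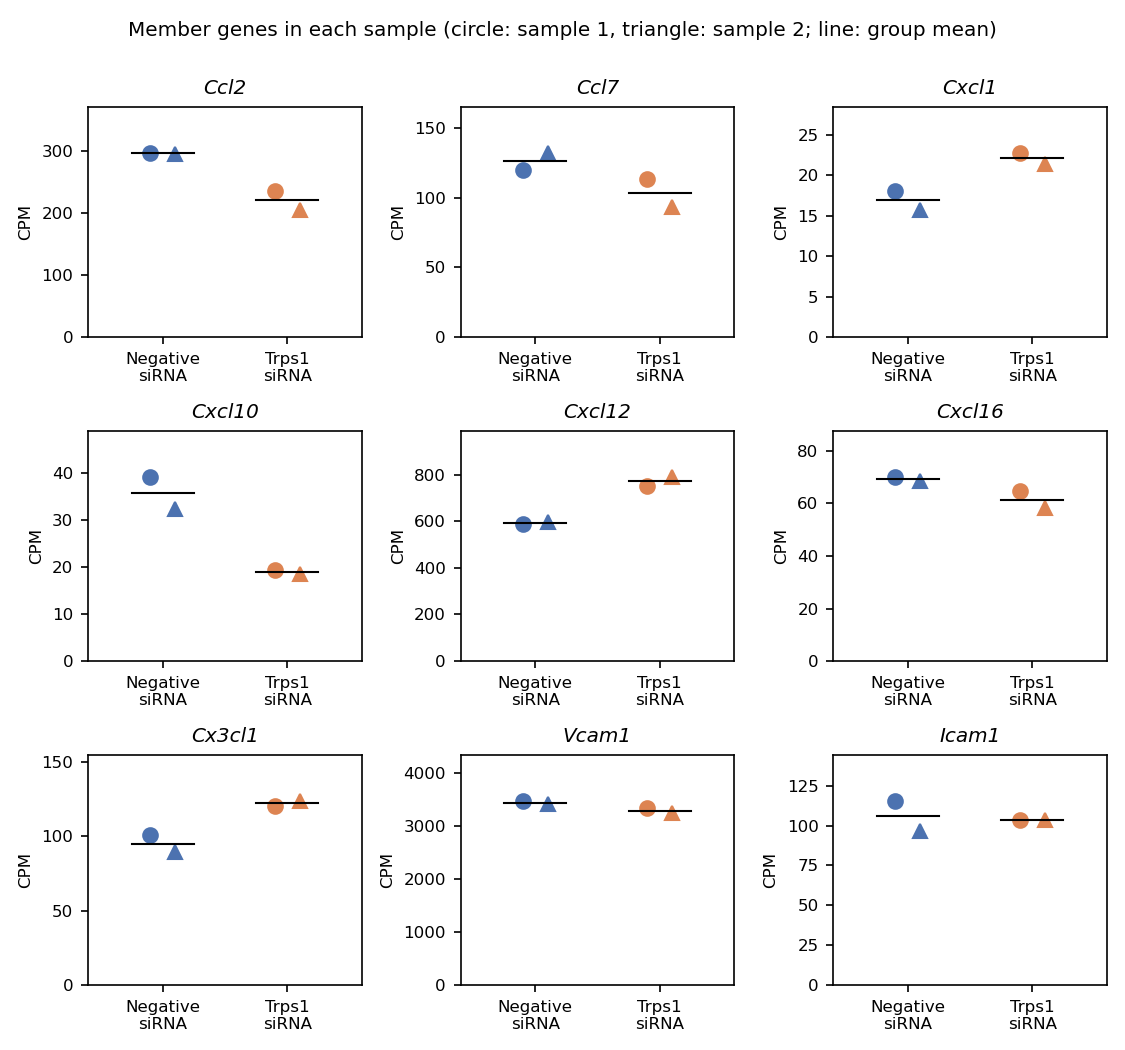
CPM of each of the 9 genes in each sample, on axes that start at 0; circles are sample 1, triangles sample 2 and lines the group means. Cxcl10, Ccl2 and Ccl7 are lower and Cxcl12, Cx3cl1 and Cxcl1 higher in both Trps1 siRNA samples, and only Icam1 has groups that overlap.

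The CC chemokines are described first. Ccl2, the main ligand of CCR2 that draws monocytes from blood, had 297 and 296 CPM in the controls and 236 and 205 CPM with Trps1 siRNA. Both control samples were nearly equal and both treated samples lay below them. The means were 296.2 ± 0.954 and 220.4 ± 21.9 CPM (SD, n = 2 each), so the level fell to 74.4% of control, with a log2 fold change of -0.43 ± 0.06 (edgeR adjusted p = 5.47e-05). Ccl2 (ENSMUSG00000035385) lies on chromosome 11 at 82035571 to 82037453, plus strand, and the values rest on 4211 to 7565 reads per library.

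Ccl7, a related monocyte attractant that also binds CCR1 and CCR3, had 120 and 132 CPM in the controls and 113 and 93.1 CPM with Trps1 siRNA. The groups did not overlap, but the lower control and the higher treated sample were close. The means were 126 ± 8.61 and 103 ± 14.3 CPM (SD, n = 2 each), a log2 fold change of -0.29 ± 0.08 (edgeR adjusted p = 0.0241). That call was lost without sample 2 of Negative siRNA (-0.22, edgeR adjusted p = 0.0900) and without sample 2 of Trps1 siRNA (-0.16, edgeR adjusted p = 0.254), and the value was -0.44 without sample 1 of Trps1 siRNA. Ccl7 (ENSMUSG00000035373, chromosome 11, 82045712 to 82047525, plus strand) starts 8258 bases after the end of Ccl2. Ccl2 and Ccl7 together summed to 417 and 428 CPM in the controls and 349 and 298 CPM with Trps1 siRNA. The summed macrophage markers were lower in the same samples and lowest in sample 2 of Trps1 siRNA, as were Ccl2 and Ccl7. Their part in the result was not tested.

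Among the CXC members, Cxcl10 had the fold change farthest from 0. It is an interferon-induced ligand of CXCR3 that attracts activated T and NK cells. Its level was 39.0 and 32.3 CPM in the controls and 19.2 and 18.5 CPM with Trps1 siRNA. Every treated value was far below every control value, with a spread of 35.7 ± 4.74 against 18.9 ± 0.474 CPM (SD, n = 2 each). Cxcl10 fell to 53.0% of control, a log2 fold change of -0.92 ± 0.10 (edgeR adjusted p = 7.03e-07). The gene (ENSMUSG00000034855, chromosome 5, 92346638 to 92348889, minus strand) was counted with 343 to 828 reads. It shares 133 exon bases with Art3 on the opposite strand, which had 922 to 1225 reads. The sources used here do not say whether counting used strand, and without strand the reads of 2 overlapping genes cannot be told apart there.

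Cxcl12, the CXCR4 ligand that retains stem cells and leukocytes in their niches at steady state, had 587 and 596 CPM in the controls and 751 and 790 CPM with Trps1 siRNA. Both treated samples stood above both controls, and the samples within each group were close. The means of 592 ± 6.49 and 770.5 ± 26.9 CPM (SD, n = 2 each) gave a 1.30-fold rise, 0.38 ± 0.06 on the log2 scale (edgeR adjusted p = 8.18e-05). It was the most highly counted chemokine of the set, with 11801 to 17160 reads (ENSMUSG00000061353, chromosome 6, 117168535 to 117181367, plus strand). The summed CPM of the 7 chemokines was therefore higher with Trps1 siRNA, at 1328 and 1309 against 1232 and 1230, although 3 of the 7 fell. CPM is not scaled to gene length, so Cxcl12, with 8176 exon bases, weighs heavily in this sum. Per kilobase of exon, Ccl2 went from a control mean of 260 to 194 with Trps1 siRNA, and Ccl7 from 157 to 129. Cxcl12 went from 72.4 to 94.2 on that scale. The summed CPM therefore does not give the direction of total chemokine transcripts. The summed Leydig cell markers were also higher in both Trps1 siRNA samples, as were all 3 members that rose, and their part in these rises was not tested.

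Cxcl1, which attracts neutrophils through CXCR2, had 18.1 and 15.7 CPM in the controls and 22.7 and 21.4 CPM with Trps1 siRNA. Its treated samples were both higher. The means were 16.9 ± 1.70 and 22.1 ± 0.920 CPM (SD, n = 2 each), a 1.31-fold rise with a log2 fold change of 0.39 ± 0.11 (edgeR adjusted p = 0.0235). This was the least firm of the 6 calls, from 364 to 466 reads. It was lost with DESeq2 (0.39, DESeq2 adjusted p = 0.143). In edgeR fits it was lost without sample 2 of Negative siRNA (0.28, adjusted p = 0.247), without sample 1 of Trps1 siRNA (0.34, adjusted p = 0.118) and without sample 2 of Trps1 siRNA (0.43, adjusted p = 0.0790). Cxcl1 (ENSMUSG00000029380) lies on chromosome 5 at 90891241 to 90893115, plus strand. Of the 5 neutrophil markers none passed the filter on low counts. S100a9, Ly6g and Retnlg were at 0 reads, S100a8 had 1 and 4 reads in the controls and 0 and 3 with Trps1 siRNA, and Mpo had 0 and 1 against 57 and 5, of which 57 were in sample 1.

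Cxcl16 and Cx3cl1 encode the membrane-anchored chemokines, which act as adhesion molecules in place and as attractants once shed. Cx3cl1 (fractalkine), the ligand of CX3CR1 on monocytes and macrophages, had 101 and 89.1 CPM in the controls and 120 and 124 CPM with Trps1 siRNA. The treated samples were both above the controls and closer to each other. The means were 94.9 ± 8.21 and 122 ± 2.22 CPM (SD, n = 2 each), a 1.29-fold rise and a log2 fold change of 0.37 ± 0.06 (edgeR adjusted p = 0.000214). The gene (ENSMUSG00000031778, chromosome 8, 94772009 to 94782427, plus strand) was counted with 2024 to 2687 reads.

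Cxcl16, the CXCR6 ligand and a scavenger receptor of macrophages, had 70.1 and 68.8 CPM in the controls and 64.7 and 58.3 CPM with Trps1 siRNA. Its groups did not overlap, yet the log2 fold change of -0.18 ± 0.07 did not pass (edgeR adjusted p = 0.119). It passed when sample 1 of Trps1 siRNA was left out (-0.25, edgeR adjusted p = 0.0422). Cxcl16 (ENSMUSG00000018920, chromosome 11, 70453983 to 70459984, minus strand) shares 552 exon bases with Zmynd15 on the opposite strand, which had 157 to 234 reads against 1155 to 1760 for Cxcl16.

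Vcam1, the ligand of α4 integrins, was the most abundant member, with 3476 and 3419 CPM in the controls and 3341 and 3243 CPM with Trps1 siRNA. The treated samples were slightly lower without overlap, and the log2 fold change of -0.07 ± 0.05 did not pass (edgeR adjusted p = 0.501). At 59646 to 87514 reads, counting error was not what limited this comparison (ENSMUSG00000027962, chromosome 3, 116109949 to 116129688, minus strand). Icam1, the ligand of the β2 integrins LFA-1 and Mac-1, had 115 and 96.8 CPM in the controls and 103.7 and 103.6 CPM with Trps1 siRNA. Both treated values lay between the control values, and the log2 fold change was -0.03 ± 0.07 (edgeR adjusted p = 0.839). It turned to 0.10 without sample 1 of Negative siRNA. Icam1 (ENSMUSG00000037405) lies on chromosome 9 at 21015985 to 21028817, plus strand. The antisense genes that overlap Vcam1 and Icam1 had at most 2 reads in any library.

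The plot of all tested genes places these values. Of the 6 called members, Cxcl10 lay farthest from 0, and the other 5 had log2 fold changes between 0.29 and 0.43 in size.

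**Figure D2:**
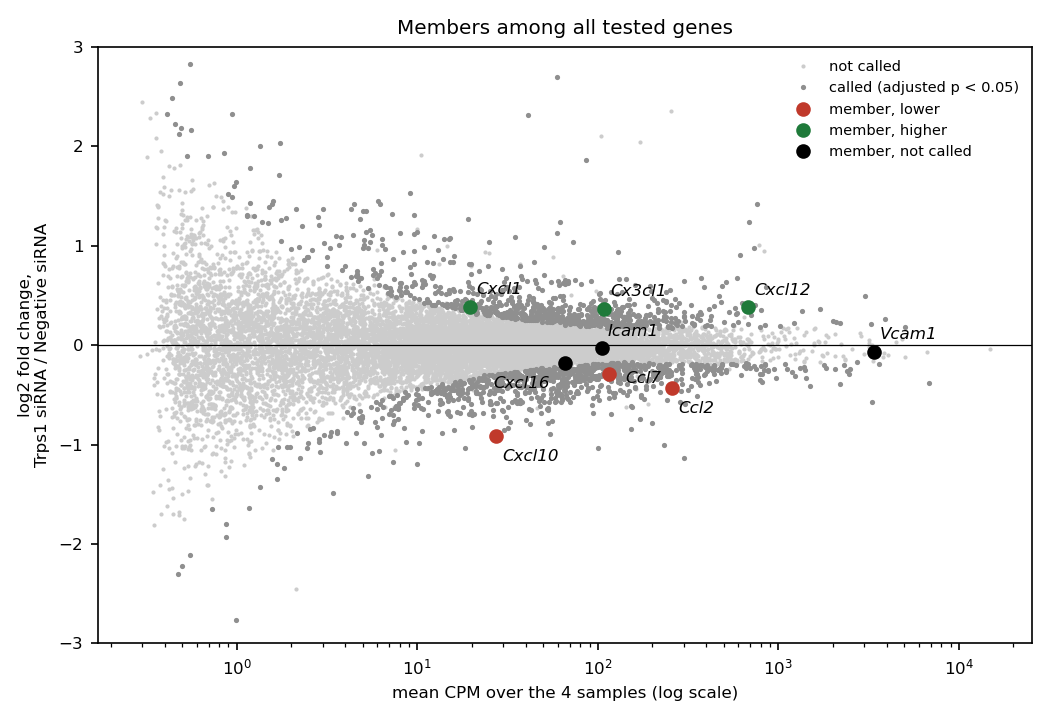
Log2 fold change of Trps1 siRNA over Negative siRNA against mean CPM (log scale) for the 14701 tested genes, with the 9 members in colour; 2 genes lie outside the plotted range. Cxcl10 is the member farthest from 0, and Vcam1 has the highest mean CPM of the 9.

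The order of levels between genes was taken per length, as CPM per kilobase of annotated exon. The sums and read counts given above are not scaled to length. In the controls the order was Vcam1 (389), Ccl2 (260), Ccl7 (157), Cxcl12 (72.4), Icam1 (24.3), Cx3cl1 (24.1), Cxcl16 (23.0), Cxcl10 (15.9) and Cxcl1 (9.02). Icam1 and Cx3cl1, and likewise Cx3cl1 and Cxcl16, overlapped between samples and had no order beyond their spread. With Trps1 siRNA the values were 371 for Vcam1, 194 for Ccl2, 129 for Ccl7, 94.2 for Cxcl12, 31.1 for Cx3cl1, 23.8 for Icam1, 20.4 for Cxcl16, 11.8 for Cxcl1 and 8.38 for Cxcl10, and no neighbours in that order overlapped. Cx3cl1 thus stood above Icam1, and Cxcl1 above Cxcl10, in the Trps1 siRNA samples. The length is that of all annotated exons joined, so a gene that uses a short transcript is understated.

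**Figure D3:**
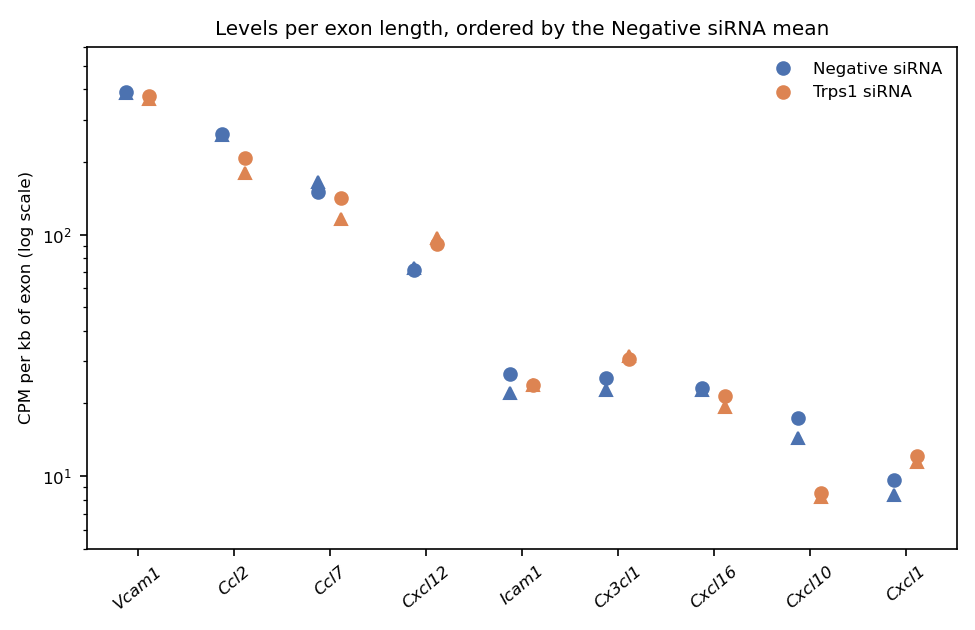
CPM per kilobase of exon (log scale) of the 9 genes in the 2 Negative siRNA and 2 Trps1 siRNA samples, ordered by the control mean; circles are sample 1 and triangles sample 2. Vcam1, Ccl2, Ccl7 and Cxcl12 stand above the other 5 in every sample, and Cxcl1 and Cxcl10 exchange places.

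The upstream bases of 3 members with different outcomes are shown next: Cxcl10, which fell, and Cxcl1 and Cxcl12, which rose. They come from the RefSeq promoter table (GRCm38.p6), which held 5 members (Cxcl1, Cxcl10, Cxcl12, Cx3cl1 and Icam1). Ccl2, Ccl7, Cxcl16 and Vcam1 were not matched. Each runs 5′ to 3′ on the gene's strand and ends just before the annotated start. Capitals mark kappaB matches, the NF-kB motif, and in Cxcl10 also the first match, to the interferon-response motif.
Cxcl10, chr5:92348890-92349139, minus strand: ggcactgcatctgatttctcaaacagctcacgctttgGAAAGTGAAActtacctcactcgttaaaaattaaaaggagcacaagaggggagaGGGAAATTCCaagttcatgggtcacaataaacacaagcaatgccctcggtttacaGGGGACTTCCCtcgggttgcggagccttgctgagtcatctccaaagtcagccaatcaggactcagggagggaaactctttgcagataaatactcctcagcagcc
Cxcl1, chr5:90890995-90891240, plus strand: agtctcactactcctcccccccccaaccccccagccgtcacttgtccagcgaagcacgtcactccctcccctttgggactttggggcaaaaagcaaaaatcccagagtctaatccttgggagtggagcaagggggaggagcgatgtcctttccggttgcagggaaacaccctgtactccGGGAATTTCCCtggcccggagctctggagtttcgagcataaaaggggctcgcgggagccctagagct
Cxcl12, chr6:117168285-117168534, plus strand: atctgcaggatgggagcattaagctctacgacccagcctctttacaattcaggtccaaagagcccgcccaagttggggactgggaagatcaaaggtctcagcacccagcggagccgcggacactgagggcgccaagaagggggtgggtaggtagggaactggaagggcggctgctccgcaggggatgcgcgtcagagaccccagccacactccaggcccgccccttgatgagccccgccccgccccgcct
Positions are counted from the RefSeq start, with -1 the base before it, and the run of Cxcl1 stops 4 bases short of it, at the GENCODE start. Motifs were searched on both strands of the 250 bases before each RefSeq start: an interferon-response-like motif (a pair of TTTC blocks set 2 bases apart), the kappaB motif, the TATA box as TATAAA, the core read by GATA factors as GATAA, and the AP-1 motif as TGANTCA. The Cxcl10 window held the interferon-response-like motif at -213 to -204, and kappaB matches at -159 to -150 and, overlapping each other, at -104 to -94. It also held TGANTCA at -74 to -68 and GATAA at -21 to -17, in lower case above. The Cxcl1 window held 2 overlapping kappaB matches at -71 to -61 and none of the other motifs. The Cxcl12 and Icam1 windows held none of the 5, and the Cx3cl1 window held only TATAAA at -6 to -1. The RefSeq start of Cx3cl1 (94772180) lies inside the GENCODE gene, which starts at 94772009. Only 79 of the 250 bases precede both starts, so this match and most of the Cx3cl1 window lie within the annotated gene. Of 32851 RefSeq promoter windows of the same length, 2.98% held the interferon-response-like motif, 7.25% kappaB, 12.4% the TATA box, 22.6% the GATA core and 6.75% the AP-1 motif. The GC content of the windows was 48.0% for Cxcl10, 59.2% for Cxcl1, 64.4% for Cxcl12, 64.8% for Cx3cl1 and 65.2% for Icam1. A match is a description of these letters and not a binding site or a cause, and a window without one says nothing about the factor.

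The rest of the chemokine family gives the members their setting. Of 38 listed chemokines 24 were tested, the 7 members included. Of these 24, 7 fell, 3 rose and 14 did not pass, where 6.00% of all tested genes were called lower and 5.24% higher. Fold changes lay below 0 for 17 of the 24, beside 49.6% of all tested genes. The median log2 fold change was -0.24, beside 0.00243 over all tested genes. The 3 that rose were the members Cxcl12, Cx3cl1 and Cxcl1. Of 19 other CC chemokines 11 were tested, 3 fell and none rose. The number that fell was 5 with limma voom, with the fit that was not robust and without sample 1 of Negative siRNA. Ccl9, a CCR1 ligand, had 202 and 223 CPM in the controls and 168 and 146 CPM with Trps1 siRNA (log2 fold change -0.44 ± 0.07, edgeR adjusted p = 8.23e-05). Ccl3, also a CCR1 ligand, had 42.8 and 43.1 against 32.5 and 31.9 CPM (-0.42 ± 0.08, edgeR adjusted p = 0.000806). Ccl5, an attractant of T cells and monocytes, had 7.01 and 8.59 against 4.93 and 5.25 CPM (-0.62 ± 0.17, edgeR adjusted p = 0.0197), and its call was lost with DESeq2 and in 3 of the 4 fits that left out a sample. Ccl4 was at -0.28 and did not pass. The summed macrophage markers were lower in the same samples, and their part in these changes was not tested.

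Of 12 other CXC and C chemokines 6 were tested and 1 fell. Cxcl11, like Cxcl10 an interferon-induced CXCR3 ligand, had 5.07 and 5.04 CPM in the controls and 1.90 and 1.70 CPM with Trps1 siRNA. Both treated samples were well below the controls, a log2 fold change of -1.49 ± 0.24 (edgeR adjusted p = 8.37e-05). GENCODE annotates mouse Cxcl11 as a polymorphic pseudogene, and it overlaps the pseudogene Gm2673, which had 0 reads. Cxcl5 (0.51), Cxcl14 (-0.08) and Pf4 (-0.17) did not pass. Without sample 2 of Negative siRNA Cxcl5 was called higher, at 1.06 (edgeR adjusted p = 0.000374), and without sample 1 of Trps1 siRNA Pf4 was called lower, at -0.40 (edgeR adjusted p = 0.0223). With only genes whose mean reached 5 CPM, Cxcl11 was not tested.

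Many chemokine genes lie side by side, so their values are also given by position. On chromosome 11 between 82035571 and 82305690, 4 of the 6 genes next to and including Ccl2 and Ccl7 were tested. Ccl2 and Ccl7 fell, and Ccl12 (-0.46) and Ccl8 (-0.56), named for their position, did not pass. The second group on that chromosome, from 83525778 to 83664683, held Ccl5, Ccl9, Ccl6, Ccl3 and Ccl4, of which 3 fell and all 5 had values below 0. On chromosome 5, Cxcl10 and Cxcl11 lie 10654 bases apart (group from 92321347 to 92365485) and both fell. Cxcl1 lies in another chromosome 5 group, from 90759360 to 90905938, in which it alone of 5 tested genes was called. Cx3cl1 lies on chromosome 8 between Ccl22 (-0.28) and Ccl17 (0.02), neither of which passed (94745590 to 94812036). Near-identical neighbours can share reads, and the sources used here do not give how reads with several matches were counted.

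**Figure D4:**
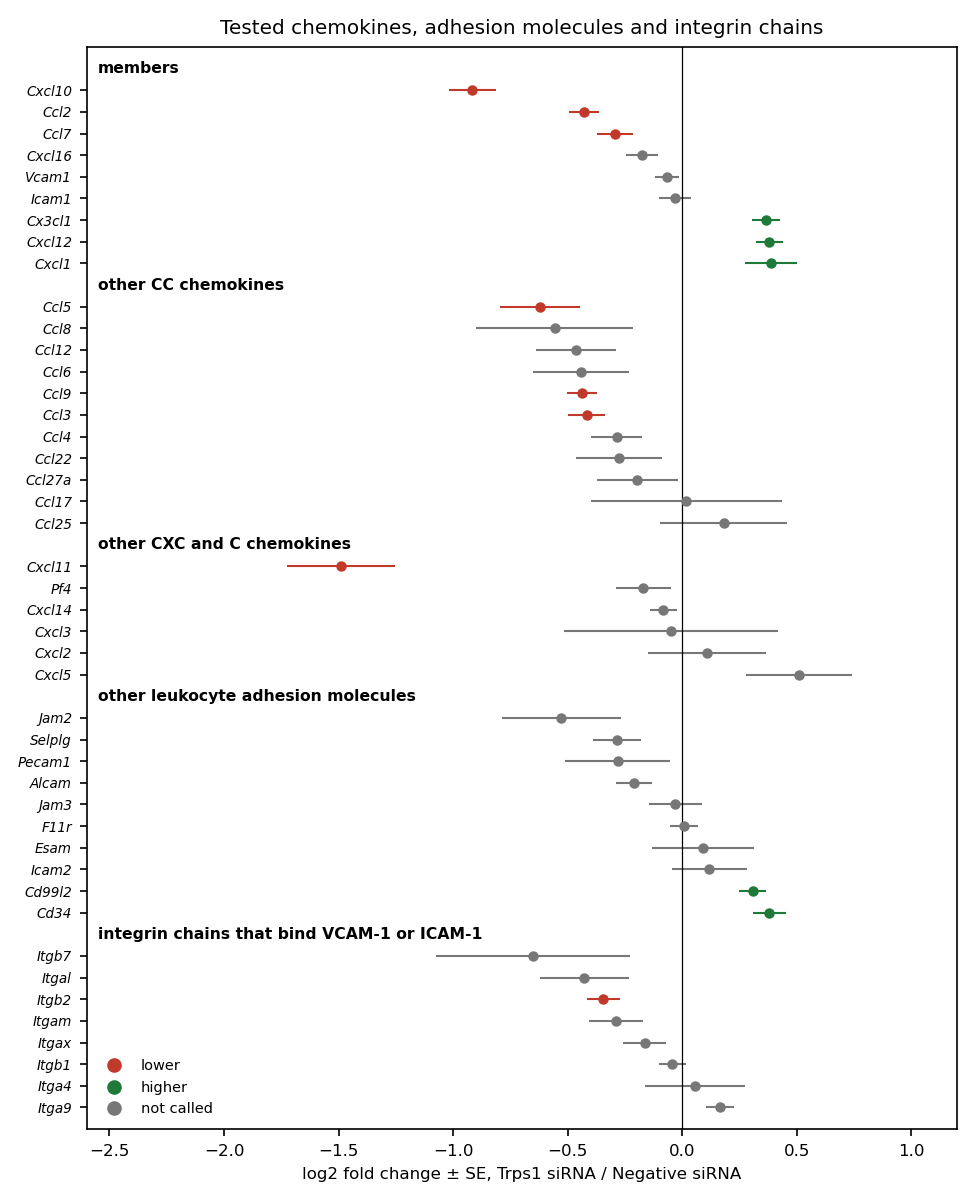
Log2 fold change with its standard error for the tested chemokines, adhesion molecules and integrin chains, by list; red is called lower, green called higher and grey not called. In the CC list every called gene is lower, while the members hold 3 called lower and 3 called higher.

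Receptors and the other lists that follow were measured in the same libraries. Their counts of calls stand beside 6.00% of all tested genes called lower and 5.24% called higher. Of 18 chemokine receptors 7 were tested, and 2 fell, none rose and 5 did not pass. Ccr1 had 18.6 and 21.8 against 17.5 and 13.7 CPM (-0.38 ± 0.13, edgeR adjusted p = 0.0497), and its call was lost in 6 of 12 alternatives. Cx3cr1, the receptor of Cx3cl1, had 43.2 and 40.1 against 43.7 and 33.8 CPM, with overlapping groups and a log2 fold change of -0.11 ± 0.10. Cxcr4, the receptor of Cxcl12, had 11.4 and 10.1 against 11.3 and 11.9 CPM (0.11 ± 0.14). Neither passed. Of 5 atypical receptors, which bind chemokines without G protein signalling, 2 were tested and neither passed. Ackr3, which clears Cxcl12, was at 0.02 and Ccrl2 at -0.52. Ccrl2 was called lower without sample 2 of Negative siRNA (-0.78, edgeR adjusted p = 0.0114), and Cx3cr1 without sample 1 of Trps1 siRNA (-0.30, edgeR adjusted p = 0.0475).

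Of 17 other adhesion molecules 10 were tested, 2 rose and none fell. Cd34, a sialomucin that can carry selectin ligands, had 52.9 and 57.6 CPM in the controls and 73.3 and 70.7 CPM with Trps1 siRNA (0.38 ± 0.07, edgeR adjusted p = 0.000554). Cd99l2, which takes part in transmigration, had 87.2 and 87.5 against 110 and 106 CPM (0.31 ± 0.06, edgeR adjusted p = 0.000746). Selplg (-0.28) and Alcam (-0.21) did not pass, and Selplg was called lower without sample 1 of Trps1 siRNA (-0.37, edgeR adjusted p = 0.0486). Of 9 integrin chains that bind VCAM-1 or ICAM-1, 8 were tested and 1 fell, a share near the 11.2% of all tested genes called. Itgb2, the β2 chain of leukocytes, had 142 and 154 CPM in the controls and 127 and 106 CPM with Trps1 siRNA (-0.34 ± 0.07, edgeR adjusted p = 0.00286), and its call was lost without sample 2 of Trps1 siRNA (-0.22, edgeR adjusted p = 0.0590). Itga9 (0.17), Itgam (-0.29) and Itgal (-0.43) did not pass. Itgam shares 3450 exon bases with Gm49368 on the same strand, so its count is less certain. Without sample 1 of Trps1 siRNA Itga9 was called higher (0.23, edgeR adjusted p = 0.0194) and Itgam lower (-0.45, edgeR adjusted p = 0.0248), and Itgam was also called lower without sample 1 of Negative siRNA (-0.39, edgeR adjusted p = 0.0379). Ccr1 and Itgb2 are genes of leukocytes, and 8 of the 14 macrophage markers fell in the same samples. Of those markers, Aif1 (-1.18) and Adgre1 (-0.55) had the smallest edgeR p. The part of the macrophage markers in these changes was not tested.

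The sheddases Adam17 (0.09) and Adam10 (0.02), which release Cx3cl1 and Cxcl16, were the 2 tested of 3 listed proteases. The count of calls was 0 with edgeR, DESeq2 and limma voom, and 0 at an unadjusted p under 0.05. All 15 genes of the NF-kB list were tested and edgeR called 0 of them. DESeq2 and limma voom also called 0, and 6 had an unadjusted edgeR p under 0.05, among them Bcl3 (-0.19), Chuk (0.22), Ikbkg (0.18) and Nfkb2 (-0.17). Bcl3 was called lower with no low-count filter (-0.19, edgeR adjusted p = 0.0308) and with only genes whose mean reached 5 CPM (-0.19, edgeR adjusted p = 0.0365). All 15 listed genes of interferon signalling (receptors, JAK, STAT and IRF) were tested, and 3 fell, none rose and 12 did not pass. Their median log2 fold change was 0.01, and 6 of the 15 lay below 0. Irf7, an interferon regulatory factor that drives type I interferon genes, had 1044 and 1127 against 834 and 896 CPM (-0.33 ± 0.06, edgeR adjusted p = 0.000776). Irf5 fell by 0.40 on the log2 scale, and the kinase Tyk2 (0.19) did not pass. Irf5 shares 411 exon bases with Tnpo3 on the opposite strand, so its count is less certain. Exon bases were likewise shared on the opposite strand by Ikbkg (418 with G6pdx) and Adam17 (311 with Iah1). The same held for Nfkb2 (531 with a noncoding gene and 299 with Psd) and Tyk2 (554 with an antisense gene). Macrophage markers were lower in the samples in which Cxcl10, Cxcl11, Irf7 and Irf5 were lower, and their part was not tested.

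Of 20 inflammatory cytokines and receptors 15 were tested, 4 fell and 1 rose. Il1r1, the signalling receptor of interleukin-1, rose from 86.3 and 81.8 CPM to 114 and 125 CPM (0.51 ± 0.06, edgeR adjusted p = 2.17e-06). Il34, a ligand of the macrophage receptor CSF1R, fell by 0.79 on the log2 scale, from 9.25 and 9.45 to 5.43 and 5.38 CPM. Il6st (-0.35), Tnfrsf1b (-0.27) and Tlr2 (-0.36, named to complete the count) fell too, and the call of Tnfrsf1b was lost without sample 1 of Trps1 siRNA (-0.19, edgeR adjusted p = 0.0782).

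For each called member, the genes with the most similar pattern over the 4 samples were found among 10315 protein-coding genes whose mean reached 5 CPM. The measure was the Euclidean distance between centred log2 CPM values, and with 4 samples it is only a description. Nearest to Ccl2 were Adap1 (0.0174), Spi1 (0.0213) and Vsir (0.0338), and Spi1 had 64.2 and 65.3 against 51.5 and 44.7 CPM. Nearest to Ccl7 was Mapk1ip1 (0.0321), to Cxcl1 Ppp1r3c (0.0314), to Cxcl12 Srgap3 (0.0173) and to Cx3cl1 Ablim1 (0.0223). Of these, Mapk1ip1 and Ppp1r3c were not called (edgeR adjusted p = 0.161 and 0.126). Nearest to Cxcl10 were Cdo1 at 0.0989, Prpf18 at 0.127 and Rtn1 at 0.136. Distances were not scaled to the size of a change, which was largest in Cxcl10, so they do not compare between members.

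The authors' deposited table of 780 genes holds 4 of the 9 members. It gives log2 fold changes of -0.43 for Ccl2, 0.36 for Cx3cl1, -0.92 for Cxcl10 and 0.38 for Cxcl12, with adjusted p-values of 5.23e-05, 0.00037, 6.98e-05 and 1.57e-07 in the authors' deposited table. The same 4 were called in all 12 alternative analyses, and the plot of settings shows their ranges: -0.53 to -0.33 for Ccl2, -1.05 to -0.78 for Cxcl10, 0.34 to 0.41 for Cxcl12 and 0.28 to 0.45 for Cx3cl1.

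**Figure D5:**
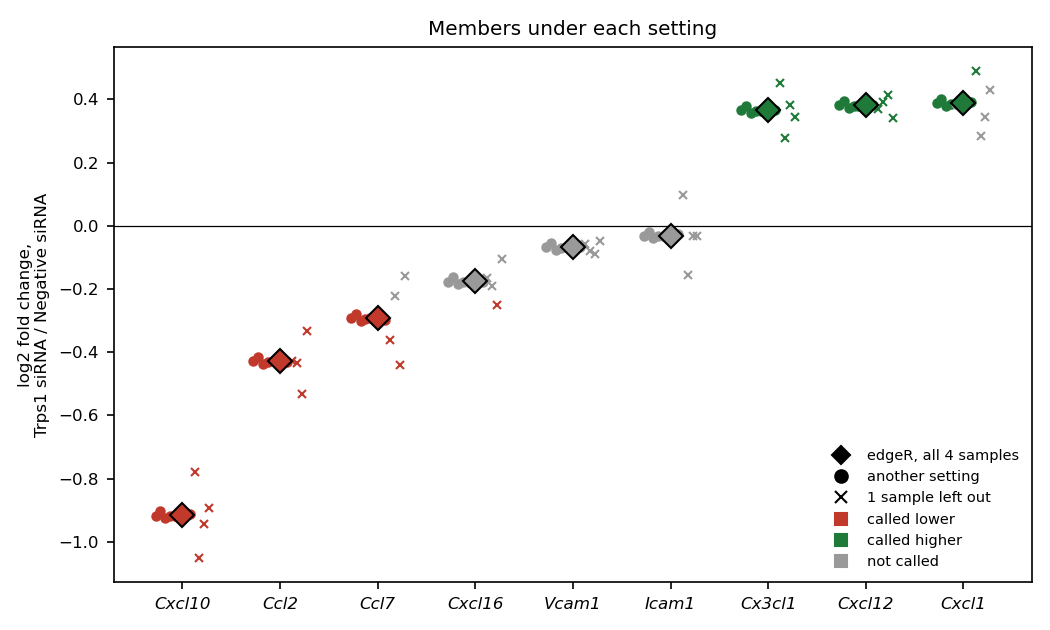
Log2 fold change of each member with all 4 samples (diamond), under 8 other settings (circles) and with 1 sample left out (crosses); colour gives the call. Cxcl10, Ccl2, Cx3cl1 and Cxcl12 keep their colour throughout, while Ccl7, Cxcl1 and Cxcl16 change call and Icam1 crosses 0.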

How the data were processed

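RNA sequencing of total RNA from 4 samples was analysed. The authors deposited raw read counts per gene for 55812 features. Per the submitters' processing notes, HISAT2 and featureCounts were used with GRCm38 (mm10); the sources used here give no versions, strand setting or treatment of reads with several matches. A second file deposited by the authors lists 780 genes with a mean normalised signal per group, log2 fold changes and raw and adjusted p-values; the sources used here do not name its test.

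Symbols came from GENCODE M21, which named 55141 of 55401 Ensembl identifiers. Groups followed the titles. The counts were fitted with edgeR 4.0.16 (R 4.3.3): TMM, filterByExpr with a minimum count of 10, robust glmQLFit and glmQLFTest on the group, with 2 residual degrees of freedom (biological coefficient of variation 0.0664). Standard errors are the log2 fold change over the square root of F. Totals of 17844125 to 25852898 counts limited precision for rare genes. The replicates of both groups differed by more than sampling noise (chi-square per gene 7.6 and 4.61).

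Named are all members, Trps1, up to 4 genes per other list with the smallest p (2 per cell-type marker list), and the 3 genes nearest in pattern to each called member; others are named where that is said, and some listed genes are not reported here. Members and lists were chosen with earlier results of these data known. Alternatives were RLE factors, library totals, no filter or one at 5 CPM, DESeq2 1.42.0, voom in limma 3.58.1, a fit that is not robust, a replicate term and each sample left out.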

Additional observations from a re-analysis of the deposited data

How the results depend on the processing

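Over 12 alternatives the number of called members was 6, except 5 with DESeq2 and 4 without sample 2 of either group. DESeq2 called 914 of 12013 tested genes (511 lower, 403 higher), against 1652 of 14701 (882 and 770) in the main edgeR fit. Leaving out 1 sample, where the lone sample of a group is assumed to vary like the other group, gave 871 to 1675 calls (476 to 927 lower, 395 to 748 higher), with the lowest counts without sample 2 of Trps1 siRNA. Over those fits the log2 fold change ranged from -0.44 to -0.16 for Ccl7, 0.28 to 0.49 for Cxcl1, -0.25 to -0.10 for Cxcl16 and -0.16 to 0.10 for Icam1, and Cxcl1 was at 0.39 with DESeq2 without passing. Fold changes of other listed genes that crossed 0 ranged from -0.10 to 0.12 for Ackr3, -0.30 to 0.068 for Cx3cr1, -0.40 to 0.041 for Pf4 and -0.027 to 0.057 for Adam10. The cause of these shifts was not tested. Without sample 1 of Trps1 siRNA 13 of 14 macrophage markers were called lower. Library totals alone shifted the median of all genes by 0.0129.

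The labels do not say whether equal replicate numbers mark a shared culture or batch. Deviations of same-numbered samples correlated at 0.0248 across the 14701 tested genes. Low-count genes weigh in that value as much as others, so it cannot settle whether the samples are paired. With the replicate block 2285 genes and 6 members were called, and 5 of the other CC chemokines fell. It also called Cxcl5 (0.54), Ccrl2 (-0.51), Itga9 (0.16), Bcl3 (-0.19), Chuk (0.22) and Ikbkg (0.18), which had missed the threshold.

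Depth limited Cxcl1 and Cxcl10 most among the members, at 364 to 466 and 343 to 828 reads. With 2 samples a group and 2 residual degrees of freedom, a gene that missed the threshold is not shown to be unaltered.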
